A study of Mus musculus with 8 samples.

Results

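Cytosolic ribosomal protein genes were examined in fibroblasts sorted from mouse back skin that had received the PPARG inhibitor GW9662 or its vehicle. The genes were chosen by symbol alone, as Rpl and Rps followed by a number, together with Rplp0, Rplp1, Rplp2 and Rpsa, and only probe sets annotated to exactly 1 gene were used. This gave 133 of 28898 such probe sets and 70 of 17097 genes, 45 of the large ribosomal subunit and 25 of the small. The treated group held 4 mice, 12 months old at the start, whose skin received 150 nmol GW9662 in 300 µl acetone on 3 days of each week over 6 months, and the vehicle group held 4 mice of the same age that received acetone alone. Strain and sex are not given in the sources used here. Fibroblasts were sorted as Pdgfra-positive, CD34-positive cells lacking CD45, CD117, CD24, CD31 and EpCam, and RNA of 5000 cells per animal was amplified over 21 cycles and hybridised to 1 array. Collection days were shared between groups, with 1 treated and 1 vehicle animal per day, and animals carrying the same number are called a pair here. The agent was put on whole skin, so the labels do not separate an action on the fibroblasts from one on their neighbours.

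Ribosomal proteins bind ribosomal RNA to build the small subunit, which decodes the mRNA, and the large subunit, which joins the amino acids. Their mRNAs are among the most abundant of a cell and share a terminal oligopyrimidine (TOP) tract, a C at the very start followed by a run of C and T, through which mTORC1 and the RNA-binding protein LARP1 adjust their translation and stability together. PPARG is a nuclear receptor best known for driving adipocyte differentiation, and GW9662 blocks it irreversibly.

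Start-site windows are shown for 9 of the genes named below, picked as 6 with a run of at least 8 C or T and 3 without. They reach from 10 bases before to 20 bases from the annotated start on (RefSeq, GRCm38.p6, gene strand, 5′ to 3′). Capitals mark the longest run of C and T where it reached at least 8 bases. The run was counted anywhere in the window and no C was required at the annotated start, which is T in Rpl27a. Presence or absence of a TOP tract in the mRNA was therefore not tested.
Rps10, chr17:27635225-27635254, minus strand: gcgcacgCCCCTTCCTTTCCagcctccgcc
Rpl35, chr2:39005112-39005141, minus strand: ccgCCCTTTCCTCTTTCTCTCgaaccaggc
Rpl27a, chr7:109519185-109519214, plus strand: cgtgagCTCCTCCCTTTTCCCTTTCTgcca
Rplp2, chr7:141447641-141447670, plus strand: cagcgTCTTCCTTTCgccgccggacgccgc
Rpl14, chr9:120571507-120571536, plus strand: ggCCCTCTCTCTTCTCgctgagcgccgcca
Rps15a, chr7:118116128-118116157, minus strand: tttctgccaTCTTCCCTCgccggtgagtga
Rpl36a, chrX:134585644-134585673, plus strand: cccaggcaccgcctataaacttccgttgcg
Rplp0, chr5:115559457-115559486, plus strand: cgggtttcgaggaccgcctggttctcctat
Rpl7l1, chr17:46782637-46782666, minus strand: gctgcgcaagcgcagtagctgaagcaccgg
The table of promoters held 56 of the 70 genes, with 67 starts. A run of at least 8 C or T lay in 31.3% of these 67 windows, against 11.2% of the 32851 windows of all genes, and a run of at least 8 A or G, which is the same run on the other strand, in 4.48% against 13.3%. Over the 300 bases of each promoter, searched on both strands, the ETS family core CCGGAAG was found at 38.8% of the starts against 8.86% of all, and the YY1 core AAGATGG at 16.4% against 6.34%. TATAAA was found at 10.4% against 13.6%, the E-box CACGTG at 11.9% against 7.15%, and the direct repeat bound by PPAR with RXR at 0% against 0.0396%. Only the exact consensus of this repeat was searched, and it was so rare that its absence at 67 starts says little. CCGGAAG and AAGATGG share letters and can overlap, which they did at 0 of the 67 starts and at 0.0152% of all. The median difference between the treatment groups, described next, was -0.1275 in the 21 genes with the C and T run at any start and -0.09 in the 35 without.

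After GW9662 most ribosomal protein genes had slightly lower values than in vehicle. On the log2 scale of the deposited values, 68 of 70 genes lay below 0 for GW9662 minus vehicle, where 51.8% of all genes did. In the other fits of the 70 genes, 62 to 68 lay below 0. The 70 genes moved together over the animals, as described below, so these counts do not hold 70 separate observations. The median difference was -0.0975, or 6.53% lower on the linear scale, against -0.005 for all genes, and single genes ranged from -0.35 to 0.1425. Adjusted over the 17097 genes, limma called none of the 70 (adjusted p = 0.997 for each) and 0% of genes in all. At an unadjusted p under 0.05 there was 1 of the 70, which was lower, against 3.38% of all genes in either direction and 1.81% lower. In 0 of the 70 did the 4 treated animals lie wholly below or wholly above the 4 vehicle animals, against 1.05% and 0.708% of all genes. The 95% interval of the difference left out 0 in 1 gene. In bulk RNA, fewer cells of a type and less RNA per cell cannot be told apart.

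The animals of a group differed among themselves by as much as the groups did. The mean over the 70 genes was 10.14, 10.31, 10.21 and 10.41 in GW9662 animals 1 to 4 and 10.38, 10.31, 10.36 and 10.47 in vehicle animals 1 to 4. This gave 10.27 ± 0.12 after GW9662 and 10.38 ± 0.065 in vehicle (SD, n = 4 each), a difference of -0.11. GW9662 animals 1 and 3 lay below all vehicle animals, while GW9662 2 stood level with vehicle 2, and GW9662 4 was above every animal but vehicle 4. GW9662 1 had the lowest value of all 8 animals in 56 of the 70 genes, and vehicle 4 the highest in 46. The 144 genes outside the group that were as bright as the median ribosomal protein gene or brighter did not follow this order, with means of 11.26 to 11.31 after GW9662 and 11.23 to 11.30 in vehicle, and vehicle 4 was the lowest of the 8 there.

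**Figure D1:**
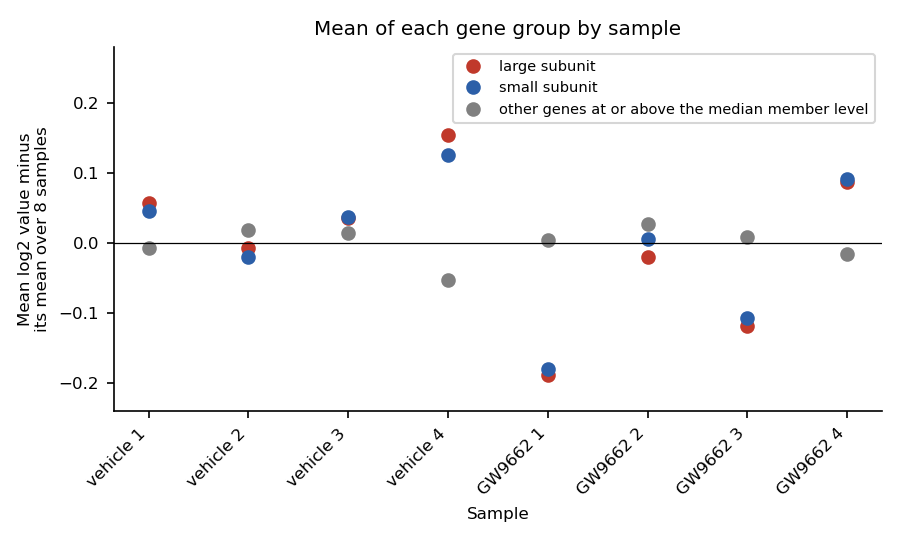
Mean log2 value of the 45 large subunit genes, the 25 small subunit genes and 144 other bright genes in each of the 8 animals, less the mean over the 8. Both subunits are lowest in GW9662 1 and highest in vehicle 4, and the other bright genes stay within a narrower range.

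**Figure D2:**
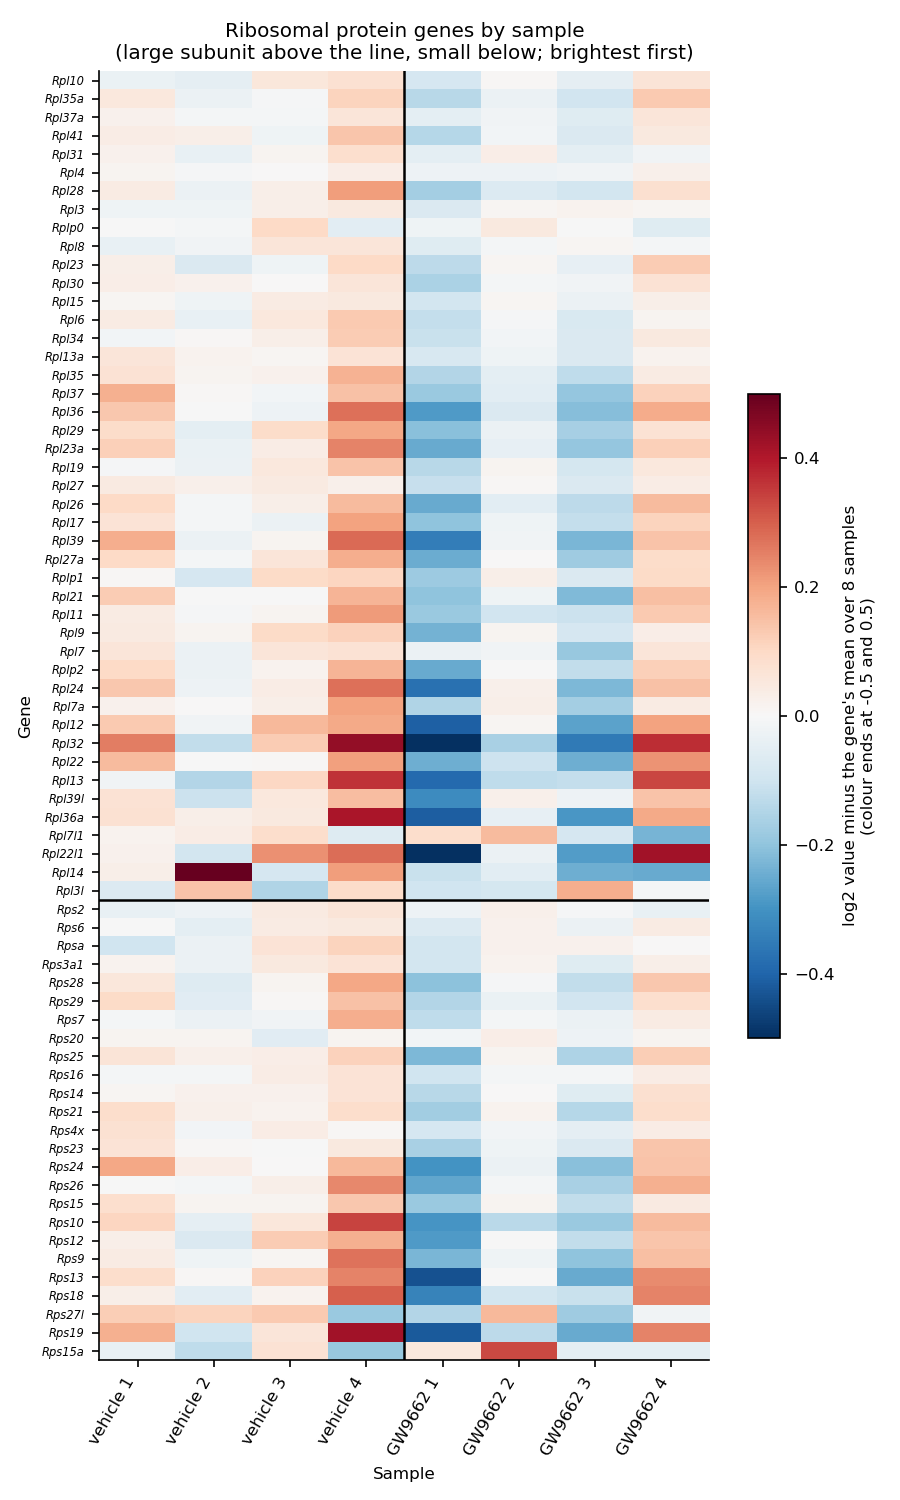
Each of the 70 genes (rows) in each of the 8 animals (columns), as the log2 value less that gene's mean over the animals, with colour ending at -0.5 and 0.5. The columns of GW9662 1 and GW9662 3 are blue and that of vehicle 4 is red in most rows, in the large subunit above the line as in the small subunit below it.

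The difference was not alike in the 4 pairs. In pair 1, GW9662 was lower in 66 of 70 genes with a median of -0.225, and in pair 3 in 68 of 70 with a median of -0.14. In pair 4 it was lower in 53 genes and higher in 13 with a median of -0.05. In pair 2 it was lower in 30, higher in 33 and equal in 7, with a median of 0. Over all genes the share lower was between 47.8% and 52.0% in every pair. Of the 70 genes, 20 were lower in all 4 pairs, where 5.93% of all genes were. With the pair number as a block in limma, 8 of the 70 had an unadjusted p under 0.05, against 4.83% of all genes. None passed adjustment in that limma fit (smallest adjusted p among the 70 = 0.966). Because the genes moved together over the animals, neither these 8 nor the 20 are separate observations.

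**Figure D3:**
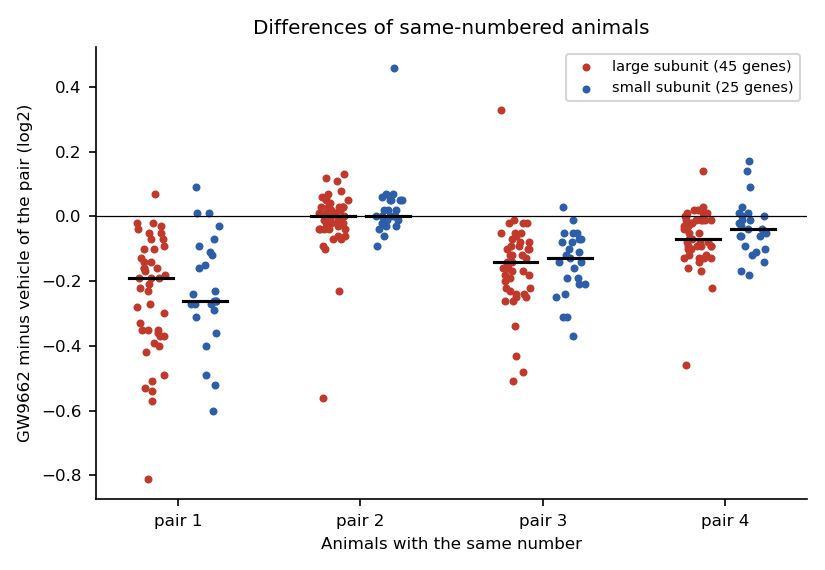
Difference of each gene (points) between the GW9662 and the vehicle animal of the same number, on the log2 scale, with the median of each subunit as a black bar. Points of pairs 1 and 3 lie almost wholly below 0, those of pair 2 lie around 0, and those of pair 4 lie slightly below.

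In the large subunit, 45 of 45 genes had a difference below 0, with a median of -0.115. Rpl32, a protein of the large subunit body, had the lowest difference of the 70 genes with all animals in the fit. Its values were 8.82, 9.21, 9.02 and 9.74 after GW9662 and 9.63, 9.25, 9.50 and 9.81 in vehicle, a difference of -0.35 ± 0.18 (SE). It was -0.22 without GW9662 1, above Rpl14 at -0.35 in that fit, and -0.53 without GW9662 4. GW9662 4 was above vehicle 1 to 3 for this gene, so the groups overlapped. Rpl36a, whose protein lies near the site where tRNA leaves the ribosome, measured 7.80, 8.17, 7.92 and 8.40 against 8.29, 8.24, 8.26 and 8.62, a difference of -0.28 ± 0.13 (SE). All but GW9662 4 lay below the lowest vehicle animal. Rpl35, at the exit of the tunnel through which the new protein leaves, measured 10.83, 10.93, 10.85 and 11.02 against 11.05, 10.99, 11.00 and 11.15, a difference of -0.14 ± 0.067 (SE). Only GW9662 4 reached the vehicle range in this probe set. Rpl39, a small protein that lines the same tunnel, was at -0.225 ± 0.11, Rpl23a at -0.185 ± 0.094, Rpl27a at -0.1675 ± 0.085 and Rpl29 at -0.165 ± 0.081 (SE). Rpl39 was at -0.15 without GW9662 1. Of these 7 genes, Rpl32, Rpl36a, Rpl35 and Rpl23a were lower in 4 of 4 pairs and the other 3 in 3 of 4.

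In the small subunit, 23 of 25 genes were below 0, with a median of -0.095. Rps10, a protein of the small subunit head, measured 10.02, 10.18, 10.13 and 10.47 after GW9662 and 10.42, 10.27, 10.37 and 10.65 in vehicle, a difference of -0.23 ± 0.11 (SE). It was lower in 4 of 4 pairs, and again GW9662 4 alone reached the vehicle range. A second Rps10 probe set of nearly the same level (10.27 against 10.31) was at only -0.04 ± 0.053 (SE). That set was lower in 3 of 4 pairs, and its groups overlapped. Rps24, which takes part in maturation of the small subunit RNA, measured 10.52, 10.79, 10.61 and 10.96 against 11.01, 10.85, 10.82 and 10.98, a difference of -0.195 ± 0.098 (SE; -0.13 without GW9662 1), also lower in 4 of 4 pairs. Rps2, the brightest of the 70 genes, lay between 12.25 and 12.31 after GW9662 and between 12.25 and 12.35 in vehicle, a difference of -0.0225 ± 0.055 (SE), and it was lower in 2 pairs and higher in 2. Rps20 was 1 of the 2 genes above 0, at 0.005 ± 0.054 (SE), and it lay on either side of 0 when single animals were left out. The other was Rps15a, described below.

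The subunits had like values. In each animal the mean of the large subunit genes minus that of the small was -0.246, -0.262, -0.248 and -0.241 in GW9662 1 to 4 and -0.227, -0.225, -0.239 and -0.208 in vehicle 1 to 4. The groups did not overlap here, but they differed by only -0.025. Without the 3 genes that were not above the array's nonspecific controls, described below, the values were -0.255 to -0.241 after GW9662 and -0.249 to -0.225 in vehicle, and the groups overlapped. Within pairs the value was lower after GW9662 in 4 of 4 pairs, with differences of -0.0191, -0.037, -0.0094 and -0.0331 for all 70 genes and of -0.0134, -0.0011, -0.0195 and -0.0159 for the 67. These gaps set different probe sets side by side and are read only between animals.

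Rplp0 and Rpsa stood near 0. Rplp0, Rplp1 and Rplp2 form the stalk that calls elongation factors to the ribosome. Rplp0, often taken as a reference gene, measured 11.41, 11.48, 11.43 and 11.37 after GW9662 and 11.43, 11.42, 11.53 and 11.38 in vehicle, a difference of -0.0175 ± 0.059 (SE) whose sign turned with renewed quantile normalisation and without vehicle 3. Rplp1 was at -0.065 ± 0.077 and Rplp2 at -0.1275 ± 0.086 (SE), and without GW9662 1 they were at -0.015 and -0.065. Rplp0 did not follow the other members over the 8 animals (Pearson r = -0.15 with the mean of the other 69 genes), while Rplp2 did (r = 0.987). Rpsa, the small subunit protein also known as the laminin receptor, was at -0.025 ± 0.066 (SE), and this sign turned when its probe sets were averaged or the quantile step was run again.

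Paralogues, here genes whose symbol marks them as relatives of another ribosomal protein gene, gave 5 members by the symbol rule. Rpl22l1, which can replace Rpl22 in the ribosome, measured 5.81, 6.33, 6.08 and 6.78 after GW9662 and 6.38, 6.27, 6.59 and 6.64 in vehicle, a difference of -0.22 ± 0.18 (SE). It was -0.073 without GW9662 1 and -0.40 without GW9662 4. GW9662 4 was the highest and GW9662 1 the lowest of all 8 animals. Rpl22 itself was at -0.1825 ± 0.11 (SE; -0.29 without GW9662 4), lower in 3 of 4 pairs, while Rpl22l1 was lower in 2 and higher in 2. Rpl39l was at -0.0875 ± 0.10, Rps27l, a p53 target, at -0.09 ± 0.098, and Rpl7l1 at -0.0375 ± 0.088 (SE). With single animals left out, Rpl39l ran from -0.15 to 0.0033, Rps27l from -0.1675 to -0.046 and Rpl7l1 from -0.096 to 0.034. Rpl22l1 and Rpl39l followed the other members over the animals (r = 0.933 and 0.892), and Rps27l (0.223) and Rpl7l1 (-0.386) did not. Rpl3l, the form of Rpl3 found in striated muscle, measured 4.61 on average and was not above the nonspecific controls, with a difference of -0.0075 ± 0.088 (SE) whose sign turned in several fits. Rpl3 was at -0.0175 ± 0.055.

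The array carries 23 control sets for nonspecific binding, whose means ran from 2.48 to 5.56. Of the 70 genes, 67 lay above the brightest of these, as did 45.5% of all genes. The median ribosomal protein gene stood at 10.77, above 99.0% of genes. The 3 genes not above the brightest control were Rpl14, Rps15a and Rpl3l, and whether these sets report the mRNA was not tested. Rpl14 was the 1 gene with an unadjusted p under 0.05. It measured 5.17, 5.23, 5.04 and 5.03 after GW9662 and 5.31, 5.79, 5.20 and 5.49 in vehicle, a difference of -0.33 ± 0.12 (SE; -0.22 without vehicle 2). A further 4 probe sets annotated to both Rpl14 and its pseudogene Rpl14-ps1 were bright, at 10.50 to 10.81, and their differences were -0.02 to -0.075. In all, 15 probe sets were annotated to a ribosomal protein gene and another gene, 8 below 0 and 7 above, with a median of -0.02. Rpl5 and Rps3 stood on such sets alone and are not among the 70, with 3 sets of Rpl5 at 0.0175 to 0.2225, the first of these being the brightest at 11.53, and 2 sets of Rps3 at 0.015 and 0.065. Rps15a measured 4.51, 4.79, 4.41 and 4.41 against 4.42, 4.33, 4.53 and 4.27, a difference of 0.1425 ± 0.096 (SE), with GW9662 2 as the high animal and a value of 0.056 without it. A bright probe set annotated to the pseudogene Rps15a-ps6 measured 9.40, 9.77, 9.49 and 9.95 against 9.92, 9.70, 9.82 and 10.06, a difference of -0.2225. It followed the mean of the 70 genes most closely among the genes outside the group that were ranked (r = 0.991 over 8 animals). Ranked were those at or above the median level of all genes, without symbols of the forms Gm, LOC and Rik and other irregular ones. Among the 67 brighter genes, 66 were below 0 with a median of -0.10.

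The median difference was not alike at all levels. Among the 12 genes above 11.5 the median was -0.036, in the 32 from 10.5 to 11.5 it was -0.0875, in the 16 from 9 to 10.5 it was -0.14625, and in the 10 below 9, of which 7 were above the nonspecific controls, it was -0.12. The 12 brightest ran from -0.10 to -0.02. Rps20 and Rpl3, just under 11.5 with means of 11.435 and 11.491, lay as near to 0 as these or nearer. The 16 genes from 9 to 10.5 ran from -0.35 to -0.065. Genes outside the group had medians of 0, 0.0075 and 0.005 in the first 3 of these ranges. Across the 67 genes above the nonspecific controls, level and difference correlated at Pearson r = 0.553 and Spearman rho = 0.695, and across all 70 at 0.230 and 0.567, as a description across genes, which are not independent.

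**Figure D4:**
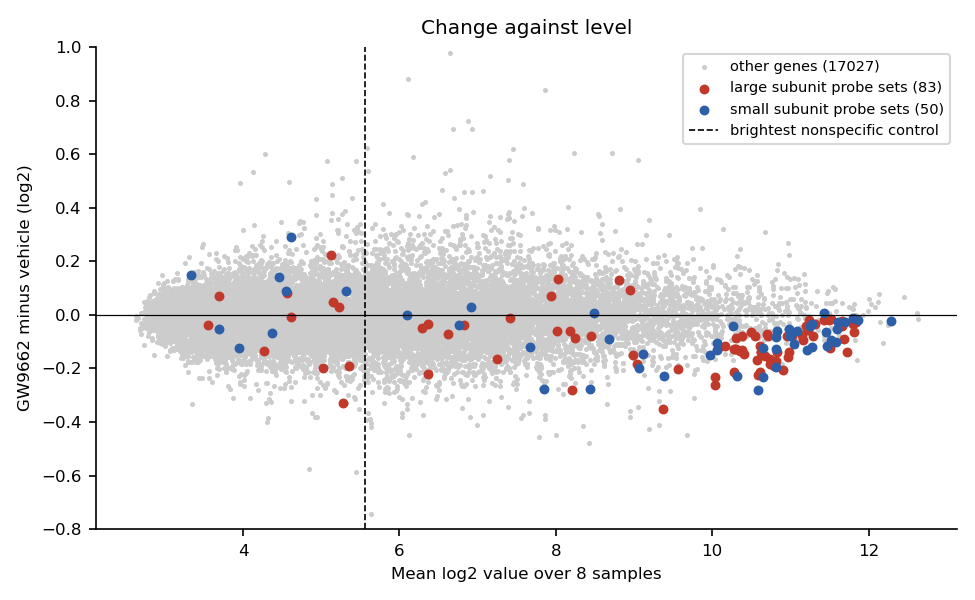
GW9662 minus vehicle against the mean log2 value for the 133 ribosomal protein probe sets (coloured) and for 17027 other genes (grey), with the brightest nonspecific control as a dashed line. Most coloured points lie at the bright end and below 0, nearing 0 above 11.5, while those left of the dashed line scatter on both sides of 0.

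All probe sets were also examined without a choice of 1 per gene. Of the 133 sets, 115 were below 0 and 17 above, with a median of -0.0825, where 50.5% of all 28898 sets were below 0. An unadjusted p under 0.05 was reached by 2 of the 133, against 3.54% of all sets. These were the Rpl14 set (-0.33) and a further Rpl35 set (-0.1725). In that Rpl35 set alone did the groups not overlap, against 314 of the 28898 sets lower and 242 higher without overlap. The 114 sets above the nonspecific controls gave 106 below 0 (median -0.0925), and the other 19 gave 9 below and 10 above (median 0.03). Sets of the type _x_, whose probes can match other transcripts and which matter here because ribosomal protein genes have many processed pseudogenes, gave 41 of 44 below 0 (median -0.10). Sets of the types _a_ gave 43 of 45 (median -0.1175), _s_ 6 of 7 (median -0.06), and plain sets 25 of 37 (median -0.0525). Of the 34 genes with several sets, 13 had sets on both sides of 0, and 6 had so among sets above the controls, namely Rpl15, Rpl22, Rpl41, Rps20, Rps27l and Rps6, which were picked out after their values were seen. For Rpl22 the brighter set was at -0.1825 and the other at 0.07. For Rpl41 the 4 sets ran from -0.09 to 0.13. In contrast the 4 sets of Rpl35 lay between -0.2625 and -0.14 and those of Rpl23a between -0.2125 and -0.1375.

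The members were high and low together from animal to animal. The median Pearson r of all pairs of the 70 genes over the 8 animals was 0.841, and 0.821 after each group was centred on its own mean, so the shared pattern was present within the groups too. Pairs within the large subunit had a median r of 0.846, within the small 0.825 and across them 0.841. A single component held 83.3% of the variance of the 70 genes. The mean pairwise r was 0.665, against 0.005 for all genes, 0.0337 for the 144 other bright genes 0.400 for the TOP mRNAs that encode no member, 0.222 for ribosome biogenesis factors, 0.148 for the 73 mitochondrial ribosomal proteins and 0.132 for translation factors. All genes of an array share its amplification and hybridisation, and these values are a description with no test. With the mean of the other 69, 44 genes had an r above 0.9, with Rpl24 the highest (0.991), followed by Rpl27a (0.990). Those under 0.5 were 9 genes, the 3 that were not above the controls together with Rpl7l1, Rplp0, Rps27l, Rps20, Rps2 and Rpsa.

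Among the genes outside the group that were ranked, those with the most similar pattern over the 8 animals were Rps15a-ps6, Fau, Ndufa6, Zfas1 and Txndc17. Their r with the mean of the 70 genes was 0.970 to 0.991. Fau encodes the small subunit protein eS30 fused to a ubiquitin-like protein, and its symbol falls outside the rule. It measured 9.63, 9.83, 9.73 and 10.06 after GW9662 and 9.97, 9.83, 9.90 and 10.07 in vehicle, a difference of -0.13 ± 0.096 (SE). Zfas1 is a noncoding host RNA of small nucleolar RNAs, at -0.16, and Ndufa6, a subunit of respiratory complex I, was at -0.255. Rpl36al, a paralogue the rule leaves out, was at -0.0925. None of these passed limma's test (adjusted p = 0.997 each).

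Related genes of translation were read from lists. Of 17 measured genes with TOP mRNAs that encode no member of the group, 14 were below 0 with a median of -0.0575. Among them Eef1b2, a subunit of elongation factor 1, was at -0.095 and Pabpc1, the poly(A)-binding protein, at -0.155. Their mean lay between 9.85 and 10.05 after GW9662 and between 9.97 and 10.07 in vehicle. Cytosolic translation factors had 22 of 33 measured genes below 0 (median -0.03), with Eif3i at -0.1575 and Eif3l at -0.1325. Ribosome biogenesis factors had 25 of 39 (median -0.0475), with Nop14 at -0.1425 and Rrp12 at -0.1375. Mitochondrial ribosomal proteins had 47 of 73 (median -0.025), with Mrps24 at -0.2425 and Mrpl37 at -0.2225. Genes of mTORC1 and growth control had 8 of 18 below 0 (median 0.03125), with Larp4, a relative of LARP1, at 0.175 and Maf1, a repressor of RNA polymerase III, at -0.1225. Of these 5 lists, 3 mitochondrial ribosomal protein genes and 1 biogenesis gene had an unadjusted p under 0.05, all lower, and 0 passed adjustment. Over all genes the share at this p was 3.38%, and 1.81% lower, as given above. The 5 lists and the ribosomal proteins share the same 8 animals, and some genes stand in several lists.

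Sample measures were set beside these values. Fibroblast markers were bright, with 11 of 12 above the nonspecific controls and list means of 10.34 to 10.45 after GW9662 and 10.24 to 10.46 in vehicle, lowest in vehicle 4. Of 70 measured markers of keratinocytes, endothelium, immune cells, adipocytes, mural cells, skeletal muscle, melanocytes and Schwann cells, 13 were above the controls. The list means after GW9662 and in vehicle were 4.69 to 4.78 and 4.69 to 4.75 for keratinocytes, 4.66 to 4.87 and 4.57 to 4.94 for endothelium, 4.49 to 4.52 and 4.48 to 4.55 for immune cells, and 4.37 to 4.46 and 4.42 to 4.55 for adipocytes. They were 5.71 to 5.94 and 5.86 to 6.01 for mural cells, 4.08 to 4.12 and 4.07 to 4.18 for skeletal muscle, and 4.61 to 4.76 and 4.56 to 4.73 for melanocytes and Schwann cells. The members of smallest p in these lists were Krt79 (0.155), Epcam (0.1425), Tek (-0.38), Cldn5 (0.1325), Cd3e (-0.1125), Cd52 (-0.105), Adipoq (-0.09), Lipe (-0.135), Kcnj8 (-0.3875), Acta2 (0.1525), Tnnt3 (-0.21), Acta1 (0.0625), Mlana (0.4475), S100b (-0.13), Lum (0.1375) and Mfap5 (-0.075), as log2 differences. Mlana, a melanocyte gene, was highest in GW9662 1 (6.30, against 4.71 to 5.27 in the others), the animal with the lowest ribosomal protein values. The Mlana mean of 5.14 was not above the brightest nonspecific control (5.56), but its value in GW9662 1 was. S100b, the other named gene of that list, was 4.40 in GW9662 1, within the 4.06 to 4.56 of the others. The difference between 3′ and 5′ control sets of Gapdh was 0.0125 ± 0.029 after GW9662 and -0.035 ± 0.025 in vehicle, and that of Actb was -0.68 ± 0.097 and -0.73 ± 0.14 (SD, n = 4), with vehicle 4 the lowest at -0.94. That of Tfrc was -0.25 ± 0.11 and -0.30 ± 0.094. The 3 control sets of 18S ribosomal RNA stood at 12.83 ± 0.015 and 12.85 ± 0.016 (3′), 11.99 ± 0.025 and 12.03 ± 0.071 (5′), and 12.89 ± 0.073 and 12.87 ± 0.048 (middle), with the middle set higher after GW9662 and the others lower. On the first principal component of the genes outside the group, vehicle 4 stood apart at 22.1 against -10.2 to 5.33 in the others. GW9662 4 came next at 5.33 and GW9662 1 was lowest at -10.2, as in the ribosomal protein mean. The order differed in between, with vehicle 2 at -8.32 below GW9662 3 at -3.13. The part of these measures in the ribosomal protein values was not tested. Without vehicle 4 the median of the 70 genes was -0.068 with 65 below 0, without GW9662 1 it was -0.062 with 62 below 0, and without GW9662 4 it was -0.15 with 66 below 0. In that last fit 28 of the 70 had an unadjusted p under 0.05, against 5.19% of all genes. This count was 6 without vehicle 2 (4.64% of all genes), 17 without pair 4 (5.08%), and 12 without pair 4 with the pair as a block (5.76%). Without GW9662 1, 2 or 3, or vehicle 1, 3 or 4, it was 1 in each fit, as with all animals. The share of all genes was 2.15% to 4.32% there. GW9662 4, left out for the count of 28, was the treated animal with the highest mean over the 70 genes. The 70 genes moved together over the animals, so none of these counts is of separate observations, and they varied with the animal left out. In none of these fits did a ribosomal protein gene pass adjustment with limma (smallest adjusted p among the 70 = 0.841).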

How the data were processed

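The deposited values are log2 signal intensities, 1 column per animal, for 45141 probe sets. They were made with RMA in affy, per the submitters' processing notes, and versions are not given in the sources used here. The logarithm's base is not stated either and was taken as 2 from their range. RMA equalises the arrays, and sample medians lay between 4.63 and 4.69. The number of animals limits the precision. GEO's annotation of the platform, updated with RefSeq (GRCm38.p6), gave the gene names: 28898 had 1 gene, 551 several and 15692 none here. For each of 17097 genes the set of highest mean over the 8 samples was used. GW9662 minus vehicle was tested by limma 3.58.1 (R 4.3.3; lmFit and eBayes without a covariate), adjusted by Benjamini-Hochberg over all genes with a threshold of 0.05, two-sided. The procedure was tested on simulated data with independent genes and larger changes than those of the members. Its sensitivity to changes as small as theirs was not tested. Alternatives were the pair as a block, trended and robust variances, brighter genes only, averaged or all probe sets, other scalings, array weights, sets not of the types _x_ and _s_, and each animal or pair 4 left out. SEs are limma's. No 2 samples shared more than 3.05% of their values.

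Animals with the same number deviated from their group means alike (r = 0.203, 0.163, 0.114 and 0.165 over genes). The series' design text gives the shared collection day, so numbers were read as pairs.

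Named members were the 10 of smallest p, those above 0, those of highest and lowest mean, the stalk genes and Rpsa. The paralogues with Rpl22 and Rpl39 were named too, and of each other list the 2 of smallest p. Outside the group, the 5 genes most correlated with the member mean were named. These were sought at or above the median level, without Gm, LOC, Rik and other irregular symbols. Rpl3, Rpl24, Rpl15, Rpl41 and Rps6 were named besides, for a range or a pairing. The members and lists were chosen with earlier results of these data known. Lists are described by counts and medians, without a test.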

Additional observations from a re-analysis of the deposited data

Results flagged for a closer look

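Of 116 groups of 4 values examined, 7 held an animal far from the other 3, and chance alone gives about 1 in 20. Rpl36a in vehicle was highest in vehicle 4 at 8.62, with the others at 8.24 to 8.29. Rps27l in vehicle was lowest in vehicle 4 at 8.49, with the others at 8.79 to 8.81. Rps20 in vehicle was 11.38 in vehicle 3 and 11.45 in the other 3. Rpl36al in vehicle was 10.41 in vehicle 3 and 10.27 to 10.29 in the others. Larp4 in vehicle was 7.19 in vehicle 3 and 6.78 to 6.84 in the others. Kcnj8 in vehicle was 8.42 in vehicle 1 and 7.89 to 7.97 in the others. Cd52 after GW9662 was 4.2 in GW9662 2 and 4.27 in the other 3.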

How the results depend on the processing

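The medians of the 70 genes, of both subunits and of the 133 probe sets, the count below 0, the difference of the member mean and the co-variation kept their direction in all alternatives run. The spread between animals (0.0965) is about as large as the median of the 70 genes, so that a move within it says little about stability. With single animals left out this median ran from -0.152 without GW9662 4 to -0.0621 without GW9662 1, each a move of over 1.5 times, that of the large subunit from -0.159 to -0.0717, that of the small from -0.139 to -0.0558, the count below 0 from 62 to 68, and the median r from 0.762 to 0.865. With the replicate block, that is the pairing by number, the median was -0.0975 and 0 genes were called. Over all genes the count called was 0 in every fit but 1 with the pair numbered 4 left out and the block kept, a choice made after the values had been seen, where it was 1, a gene outside the 70. At an unadjusted p under 0.05 it was 578. Of 55 named genes, 8 members turned sign in some fit, by at most 0.0383. With single animals left out, Rpl3l ran from -0.0692 to 0.0383, Rpsa from -0.0625 to 0.0075, Rpl7l1 from -0.0958 to 0.0342, Rplp0 from -0.0375 to 0.0125, Rps20 from -0.0125 to 0.0142 and Rpl39l from -0.15 to 0.0033. Rpl3l was at 0.0025 centred on the brightest genes, 0.0015 with array weights and 0.0233 without pair 4. Rpsa was at 0.0312 with the mean of its sets, 0.0106 with renewed quantiles and 0.0033 without pair 4. Without pair 4, Rpl7l1 was at 0.0067 and Rps2 at 0.0033, and the values without pair 4 were the same with the block. Rplp0 was at 0.0023 with renewed quantiles, and Rps27l at 0.005 with its set that is not of the type _x_ or _s_. The cause was not tested. No detection calls were among the values used, so the nonspecific controls alone stand for background, and 19 of the 133 probe sets were not above them.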
